A study of Mus musculus with 248 samples.

Results

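The 4 genes described here are Tph1, Hdc, Slc18a2 and Ddc, which together make serotonin and histamine and load both amines into granules. They were chosen by name, and all 4 were listed in both expression tables, among 18508 genes in the training cohort and 13607 in the validation cohort. The tables hold genes above 0.5 CPM (training) or 5 CPM (validation) in 2 libraries or more. No Ctrl library reached those limits for Tph1 in either cohort (at most 0.19 and 2.75 CPM) or for Ddc in validation (at most 3.496 CPM), so these entered through CM libraries and their being called is no independent support. Peripheral blood RNA was sequenced in bulk from C57BL/6 mice followed over months: 55 CM and 77 Ctrl libraries in the training cohort, and 68 CM and 48 Ctrl libraries in the validation cohort. CM mice carried Cbfb+/56M together with Mx1-Cre, genotype label CHW (7 training and 13 validation mice). Ctrl mice were littermates that were wild type, carried Cbfb+/56M alone or carried Mx1-Cre alone, with the genotype labels CW, HW and WT (7 training and 8 validation mice). Induction was by poly(I:C) in both arms, with 7 injections of 14 mg/kg begun when the animals were 4 to 8 weeks old, so every comparison between arms after T0 is between induced animals. In the CM arm poly(I:C) activates the interferon-responsive Mx1 promoter, and Cre then switches on the Cbfb-MYH11 fusion; that promoter is not confined to blood cells. Months are counted as T0, before induction, to T10. Libraries named WK followed 3 CM and 2 Ctrl validation mice by week. The validation cohort also has 6 CM libraries labelled L, whose letter the labels do not spell out. The study's protocol defines overt leukemia by more than 20% cKit+ blasts, but no blast count per library was used here.

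Serotonin is made in 2 steps. Tryptophan hydroxylase, Tph1 outside the brain, adds a hydroxyl group to tryptophan and is the rate-limiting enzyme, and aromatic L-amino acid decarboxylase, Ddc, then removes the carboxyl group. Histamine is made in 1 step from histidine by histidine decarboxylase, Hdc. The vesicular monoamine transporter VMAT2, the product of Slc18a2, pumps both amines into storage granules. In rodents mast cells are known to hold both amines, basophils and mast cells are the main histamine stores, and neutrophils also transcribe Hdc. Platelets carry most of the serotonin of blood, but take it up through the plasma membrane transporter Slc6a4 after synthesis elsewhere, and they store it by means of Slc18a2.

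Sequencing depth was 15.996 to 36.3 M reads per training library and 8.68 to 34.4 M reads per validation library (1 M is 1e+06 reads). Levels are log2 CPM (counts scaled to library depth, on a log2 scale with a small prior), so that a gene with 0 reads reads -6.52 in the training table and -6.30 in the validation table. Levels are not per gene length, and they are compared below between mice and months, not between genes. The label PBMC was checked on the white blood cell genes Ptprc, Cd3e, Cd79a, Lyz2 and Nkg7, and none was at 0 over a month's libraries. Marker genes of platelets and red cells were also present, and they rose in the late training controls as given below. The white blood cell list itself was lower in late libraries. Its median log2 change from T0 was -2.25 in training Ctrl at T10, where the median of all genes was -1.81. It was -2.43 in the last training CM libraries and -2.42 at L, where the medians of all genes were -0.57 and -0.04. The values went against the labels in 2 validation CM mice. Mouse 2700, labelled CHW, averaged -3.67 log2 CPM of the knock-in transcript over 7 libraries, against 3.30 to 4.61 in the other 12 CM mice. Validation Ctrl mice with the knock-in allele alone averaged 3.09 to 3.17, and the other Ctrl mice -6.30 to -4.07. The T0 library of mouse 2731, labelled female, had Ddx3y, a gene of the Y chromosome, at 5.21 log2 CPM, while its 3 later libraries had -4.29 to -2.35. In training, where that transcript was sparse, CM mice averaged -3.68 to -1.82 and Ctrl mice with the knock-in allele alone -4.96 to -4.32, while the other Ctrl mice had no read of it. Results with and without mice 2700 and 2731 are given where they bear on a call.

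The stretch of 250 bases before a gene's start is shown for 3 members. The reason is that 2 blood cell transcription factors, Gata1 and Tal1, were among the genes whose level followed Slc18a2 most closely (below). Capitals mark short words bound by GATA factors and by RUNX factors, the partners of Cbfb, on either strand. The GATA words searched were AGATAA and TGATAA, as well as AGATAG and TGATAG. The RUNX words searched were TGTGGT and TGCGGT. No 2 hits overlapped. The sequences are from RefSeq on GRCm38.p6 and are written 5′ to 3′ on the gene's strand. Tph1 (ENSMUSG00000040046, chromosome 7, 46644641 to 46672537) and Hdc (ENSMUSG00000027360, chromosome 2, 126593659 to 126624025) lie on the minus strand, and Slc18a2 (ENSMUSG00000025094, chromosome 19, 59260878 to 59296012) on the plus strand. The Hdc start used by the reference lies inside the annotated span of the gene.
Tph1, chr7:46672538-46672787, minus strand: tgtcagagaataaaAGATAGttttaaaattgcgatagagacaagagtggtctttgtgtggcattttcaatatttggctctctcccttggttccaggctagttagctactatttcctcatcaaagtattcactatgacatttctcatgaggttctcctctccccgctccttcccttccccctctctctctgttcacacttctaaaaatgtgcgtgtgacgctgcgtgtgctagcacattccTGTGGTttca
Hdc, chr2:126618679-126618928, minus strand: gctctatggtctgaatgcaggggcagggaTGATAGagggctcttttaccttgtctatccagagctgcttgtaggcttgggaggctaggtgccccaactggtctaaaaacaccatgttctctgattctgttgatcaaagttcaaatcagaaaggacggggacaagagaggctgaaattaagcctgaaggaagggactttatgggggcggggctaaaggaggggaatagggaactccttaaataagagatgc
Slc18a2, chr19:59260628-59260877, plus strand: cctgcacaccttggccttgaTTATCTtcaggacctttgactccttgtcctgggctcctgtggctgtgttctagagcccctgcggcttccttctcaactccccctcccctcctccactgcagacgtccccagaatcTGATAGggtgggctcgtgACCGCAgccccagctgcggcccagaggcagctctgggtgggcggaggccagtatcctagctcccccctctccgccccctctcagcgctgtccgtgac
With positions counted back from the start site, Tph1 held a GATA word at -236 and a RUNX word at -10. Hdc held 1 GATA word, at -221. Slc18a2 held 2 GATA words, the first at -230, and 1 RUNX word, at -97. Neither of the 2 reference starts of Ddc (ENSMUSG00000020182, chromosome 11, 11814101 to 11898144, minus strand) nor the second start of Tph1 had any of these words. An E-box of the mast cell factor MITF (CATGTG or CACGTG) was found before none of the starts of the 4 genes. Of 32851 reference windows of this length, 26.5% held a GATA word, 18.6% a RUNX word and 17.6% an E-box, so these matches are descriptions and not binding sites.

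Tph1 was all but unread in control blood. In the training cohort 52 of 77 Ctrl libraries had 0 Tph1 reads and the highest had 4. In the validation cohort 29 of 48 Ctrl libraries had 0 reads, and 9 had more than 3. Over all CM libraries the gene ran from 0 reads to 86561 (training) and 108317 (validation), a highest level of 11.31 and 11.85 log2 CPM. Hdc was read in every library of both arms, from 1.98 to 9.72 in training Ctrl and from 3.04 to 10.73 in training CM libraries. Slc18a2 ran from 1.57 to 6.498 in training Ctrl and from 2.23 to 9.38 in training CM libraries. Ddc stayed between -2.70 and 1.08 in training Ctrl libraries, at 3 to 47 reads, and reached 6.84 in CM. In the validation cohort the highest CM levels were 11.69 for Hdc, 11.13 for Slc18a2 and 6.95 for Ddc, against highest Ctrl levels of 7.85, 5.56 and 1.81. In bulk blood, more cells of a type and more RNA per cell cannot be told apart. The highest single level of each member was in a CM library in both cohorts.

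**Figure D1:**
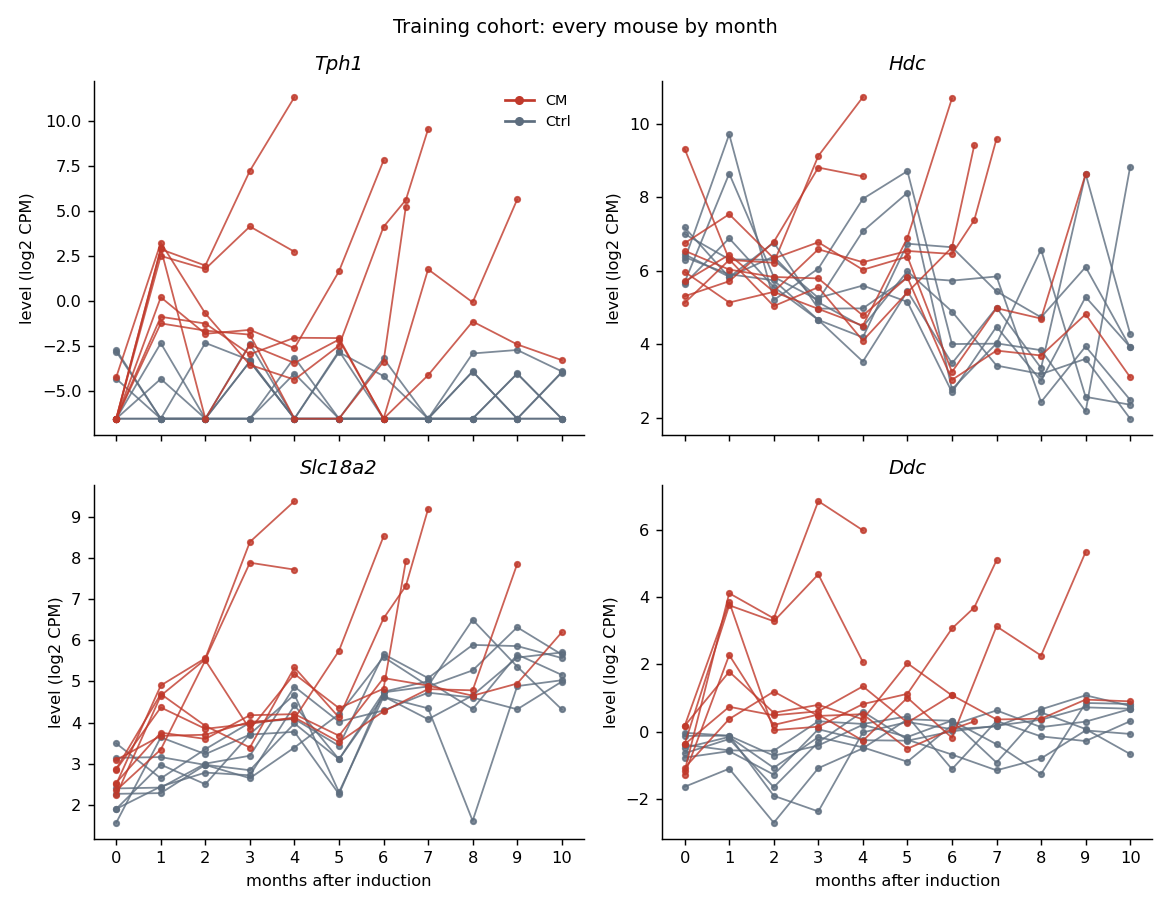
Level of each gene (log2 CPM, vertical axis) in every training mouse by month (horizontal axis), 1 line per mouse, CM in red and Ctrl in grey. Tph1 lies at or near its 0-read level of -6.52 in Ctrl throughout, while single CM mice climb to levels up to 11.31 at different months.

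**Figure D2:**
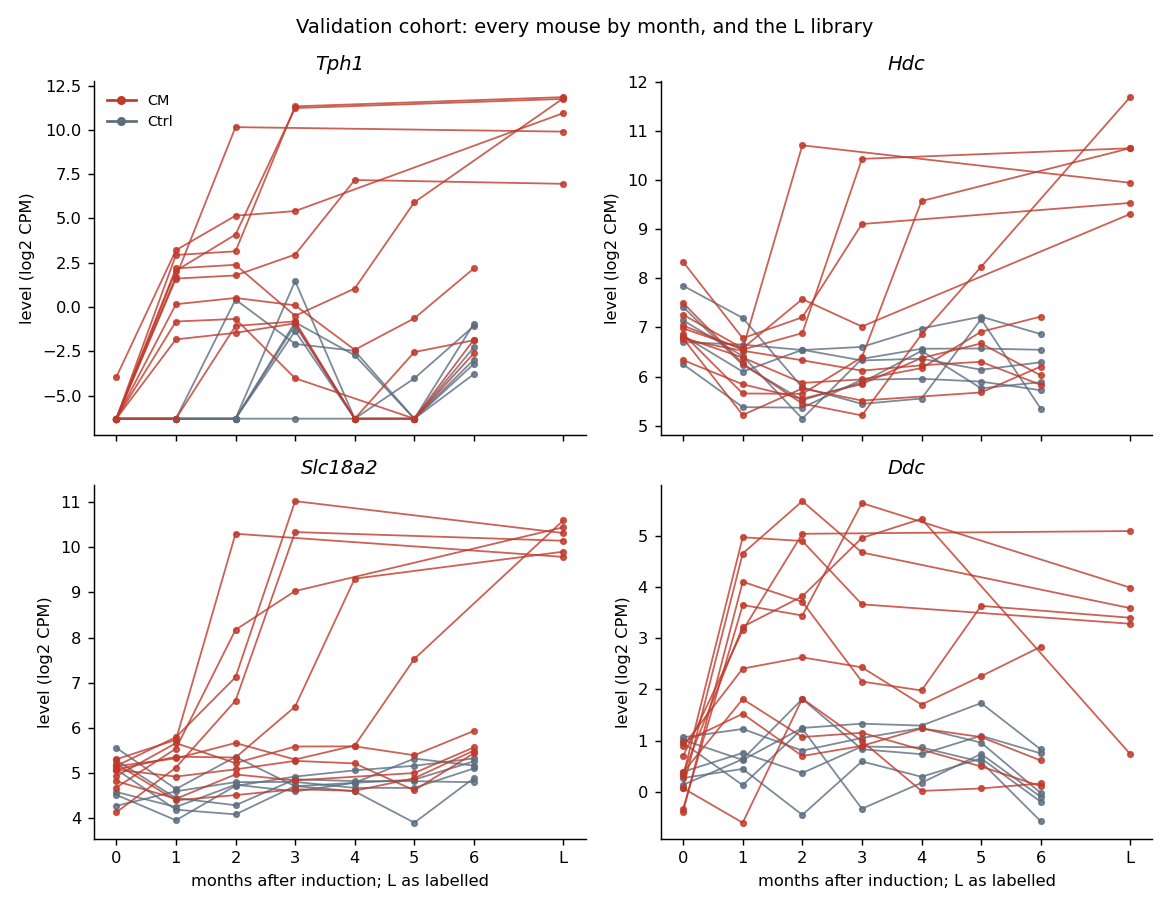
Level of each gene (log2 CPM) in every validation mouse by month, with the L library at the right, CM in red and Ctrl in grey. The 6 L libraries lie between 6.95 and 11.85 for Tph1, and 1 of them is low for Ddc, at 0.74.

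Before induction no member passed the test between the arms. At T0 the Tph1 reads of a library numbered 0 or 1 in training CM and 0 to 3 in training Ctrl, and 0 or 1 in validation CM and 0 in validation Ctrl, all within the limit of 3 reads that a count of 0 allows. Hdc averaged 6.39 ± 1.42 in training CM and 6.38 ± 0.58 in training Ctrl (SD, n = 7 each). The wide CM spread came from mouse 3334, at 9.32, while the other 6 CM mice lay between 5.13 and 6.75. Slc18a2 averaged 2.64 ± 0.31 and 2.38 ± 0.70, and Ddc -0.56 ± 0.62 and -0.58 ± 0.53 (SD, n = 7 each). In limma fits over all genes, 0 of 4 members passed an adjusted p of 0.05 in training, where 0.0054% of genes passed, and 0 of 4 in validation, where 0% passed. No member reached an unadjusted p of 0.05 in either cohort, and voom called none. Leaving out mouse 2700 or mouse 2731 left the validation count at 0.

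One month after induction Tph1, Ddc and Slc18a2 were higher in CM blood, and Hdc did not pass the test. Tph1 reads numbered 10 to 210 in the 7 training CM libraries and 0 to 4 in the 7 Ctrl libraries. All 7 CM mice were above all Ctrl mice. In sum this was 783 reads against 5, of which 4 were in mouse 3340, and the fitted difference was 6.65 ± 0.88 log2 (SE, adjusted p = 0.00098). The fitted value depends on the prior that stands for 0 reads. Ddc ranged from 0.37 to 4.11 with a median of 2.27 in CM, against -1.10 to -0.12 with a median of -0.22 in Ctrl. The Ddc groups did not overlap, and the difference was 2.46 ± 0.47 (adjusted p = 0.0081). The share of all genes without overlap was not counted, here or at the other months below. Slc18a2 ranged from 3.35 to 4.90 (median 4.37) in CM and from 2.29 to 3.64 (median 2.65) in Ctrl. Here 6 of 7 CM mice lay above the highest Ctrl mouse, and the difference was 1.37 ± 0.29 (adjusted p = 0.0137). With all months in 1 fit and the mouse as block the Slc18a2 difference was 1.25 ± 0.54, with an adjusted p of 0.39. That fit, called the block fit below, also shares 1 residual variance per gene over all months. Calls that it changes can therefore not be credited to the block alone. Hdc ranged from 5.14 to 7.54 in CM and from 5.83 to 9.72 in Ctrl. Its difference was -0.48 ± 0.54 (adjusted p = 0.57), and 2 Ctrl libraries, of mice 3342 (9.72) and 3346 (8.65), lay above every CM library. So 3 of 4 members passed, at a background of 5.02% of all genes (3.68% higher and 1.34% lower).

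In the validation cohort the same 3 members passed at T1, at a background of 28.5% of all genes (7.95% higher and 20.6% lower). Tph1 and Ddc were listed there through CM libraries, so their calls are no independent support. Tph1 reads numbered 0 to 159 in the 10 CM libraries and 0 in all 6 Ctrl libraries. The CM median of 3.13 CPM was at least 16.3-fold higher than the level that 3 reads in an average Ctrl library would give. Mouse 2685 alone had no Tph1 read in the CM arm, and mouse 2700 had 5. The fitted Tph1 difference was 6.79 ± 1.12 (adjusted p = 0.0042). Ddc ranged from -0.60 to 4.97 (median 3.19) in CM and from 0.13 to 1.23 (median 0.63) in Ctrl, and 9 of 10 CM mice exceeded every Ctrl mouse. The exception was again mouse 2685, below all Ctrl mice. The Ddc difference was 2.25 ± 0.65 (adjusted p = 0.0206). Slc18a2 ranged from 4.40 to 5.80 (median 5.34) in CM and from 3.96 to 4.65 (median 4.35) in Ctrl. With 8 of 10 CM mice above every Ctrl mouse, its difference was 0.88 ± 0.20 (adjusted p = 0.0088). Hdc differed by -0.09 ± 0.26 (adjusted p = 0.81), with CM from 5.22 to 6.78 and Ctrl from 5.38 to 7.19. On the whole reads, voom kept the call of Slc18a2 only, with adjusted p = 0.097 for Tph1 and 0.11 for Ddc. In the block fit over all months Slc18a2 lost its call (0.88 ± 0.57, adjusted p = 0.37). Leaving out either mouse with a failed label kept all 3 calls.

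Markers of several blood cell types were higher in the same T1 libraries. The summed level of the measured basophil and mast cell markers ran from 38.7 to 624.5 CPM in training CM and from 21.1 to 34.6 CPM in training Ctrl. It ran from 46.6 to 961 CPM in validation CM and from 15.1 to 28.02 CPM in validation Ctrl. Of this list, 7 of 11 genes were higher and 1 lower in CM in training, and 8 of 12 were higher in validation. Over all genes 3.68% were higher and 1.34% lower in training, and 7.95% higher and 20.6% lower in validation. Genes read mainly in CM blood can have entered through CM libraries, so these counts are no independent support. The mast cell tryptase Tpsb2 had 0 reads in the validation Ctrl libraries of T1, the mast cell receptor Mrgprb2 had 0 in both arms there, and the chymase Mcpt4 had 0 in the training Ctrl libraries. Platelet and megakaryocyte markers were higher for 12 of 14 genes in training and 11 of 14 in validation, and red cell markers for 5 of 5 in both. Their part in the member differences was not tested.

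At month 2 the same 3 members passed in the training cohort. Ddc ranged from 0.04 to 3.36 (median 0.56) in CM and from -2.70 to -0.57 (median -1.28) in Ctrl, with no overlap and a difference of 2.39 ± 0.51 (adjusted p = 0.0094). Slc18a2 ranged from 3.603 to 5.56 (median 3.92) in CM and from 2.50 to 3.35 (median 2.98) in Ctrl, again with no overlap, and differed by 1.51 ± 0.36 (adjusted p = 0.0161). Tph1 reads numbered 0 to 88 in CM and 0 to 4 in Ctrl, 208 against 4 in sum. All 4 Ctrl reads were in mouse 3335, and 88 of the CM reads were in mouse 3338. The Tph1 difference was 4.33 ± 1.12 (adjusted p = 0.024). Hdc differed by -0.19 ± 0.29 (adjusted p = 0.72). The 3 calls of 4 stood against a background of 11.7% (5.46% higher and 6.25% lower). In the block fit over all months Tph1 (4.23 ± 1.40, adjusted p = 0.16) and Slc18a2 (1.40 ± 0.54, adjusted p = 0.32) lost their calls. Ddc kept its call there. On log2(CPM + 1), which weighs single reads less, Tph1 differed by 0.71 (adjusted p = 0.14), and without any of mice 3334, 3368, 3349 or 3350 its adjusted p was 0.0535 to 0.0767.

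Between months 1 and 2 Tph1 went down in all 7 training CM mice, with changes of -9.44 to -0.37 log2 (median -0.90). Mouse 3370 went from 210 reads to 0 and mouse 3336 from 202 to 15. In the validation cohort Tph1 went the other way in all 10 CM mice, with changes of 0.15 to 8.45 (median 0.36). There T1 and T2 were different sequencing runs with different library preparations, unstranded and stranded, so that month and run cannot be told apart. Neither change was tested. At validation T2 the Tph1 reads numbered 7 to 29593 in CM, and 0 in 5 of 6 Ctrl libraries, with 21 in the sixth, of mouse 2705. The fitted difference of 7.58 ± 1.58 did not pass (adjusted p = 0.10), and 0 of 4 members passed at a background of 0.147%. Tph1, Slc18a2 and Ddc reached an unadjusted p of 0.05, as did 1374 of all genes, while voom called no member. Tph1 did pass without mouse 2700 (8.07, adjusted p = 0.0303) and without mouse 2731 (6.69, adjusted p = 0.0368). It also passed in the block fit over all months (adjusted p = 0.0010). Ddc passed only in the block fit (2.44 ± 0.57, adjusted p = 0.0051). Mouse 2731 stood far above the other CM mice at that month, with Tph1 at 10.15, Hdc at 10.71 and Slc18a2 at 10.30.

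**Figure D3:**
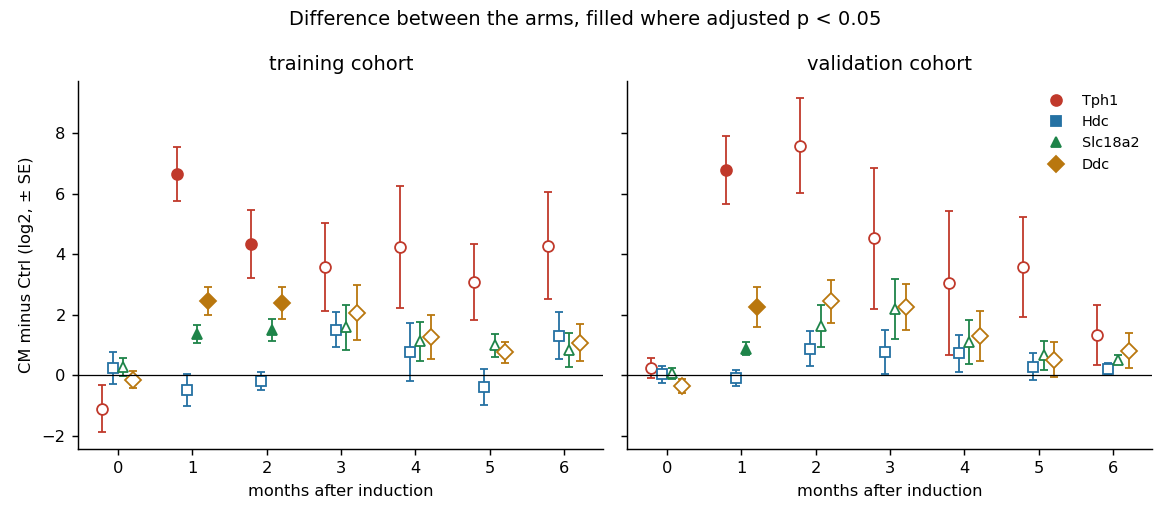
Difference between the arms (CM minus Ctrl, log2, with the standard error as bars) for the 4 genes by month, filled where the adjusted p was under 0.05. Tph1, Slc18a2 and Ddc are filled at T1 in both cohorts and at T2 in training, and Hdc is open at every month.

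From month 3 on the CM mice spread apart and no member passed the monthly test. At training T3 Tph1 reads were 2 to 8 in 5 CM mice, 505 in mouse 3357 and 3949 in mouse 3338, against 0 to 4 in Ctrl. Slc18a2 ranged from 3.40 to 8.39 in CM and from 2.65 to 4.00 in Ctrl. Hdc ranged from 4.97 to 9.13 in CM and from 4.67 to 6.06 in Ctrl. Ddc ranged from 0.15 to 6.84 in CM and from -2.37 to 0.31 in Ctrl, where 6 of 7 CM mice lay above every Ctrl mouse. In each of these genes the 2 highest levels were those of mice 3338 and 3357. The differences were 3.58 ± 1.44 (Tph1), 1.51 ± 0.58 (Hdc), 1.59 ± 0.74 (Slc18a2) and 2.07 ± 0.90 (Ddc), with adjusted p of 0.24 to 0.33. Thus 0 of 4 members passed, at a background of 0.632%, and all 4 reached an unadjusted p of 0.05, as did 2793 of all genes. Ddc passed in the block fit over all months (2.30 ± 0.59, adjusted p = 0.0224).

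At training T4, T5 and T6 again 0 of 4 members passed, against backgrounds of 0.0054%, 0% and 0.0162% of genes. At an unadjusted p of 0.05 the counts were 1, 2 and 1 of 4 members, beside 1030, 1583 and 1661 of all genes, and voom called no member. The CM mouse with the highest Tph1 changed as mice left the series. Mouse 3338 reached 86561 Tph1 reads at T4, its last library. Mouse 3341 went from 3 reads at T4 to 68 at T5 and 8076 at T6, and Hdc in it went from 4.51 to 6.90 and 10.69. In the block fit over all months Tph1 passed at T6 (4.76, adjusted p = 0.0266). In the validation cohort 0 of 4 members passed at T3, T4, T5 and T6, where 0% of genes passed at each month. Members at an unadjusted p of 0.05 numbered 2, 0, 0 and 1, over all genes 2224, 369, 1169 and 469, and voom called none. At T3 the block fit called Tph1 (4.57, adjusted p = 0.0303), Slc18a2 (2.25, adjusted p = 0.0104) and Ddc (2.26, adjusted p = 0.0093). The T3 levels of mice 2690 and 2719 stood far above the other 7 CM mice in Tph1, at 11.23 and 11.32, with the next at 5.42. At T6 the 4 CM mice left had 2 to 88 Tph1 reads, against 1 to 11 in Ctrl, and Slc18a2 at 5.44 to 5.93 against 4.80 to 5.33, with no overlap but an adjusted p of 0.87.

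Tph1 reads in validation controls were most numerous at T3. At T3 the 6 Ctrl libraries had 0, 4, 9, 10, 11 and 65 Tph1 reads, 99 in sum, while the 9 CM libraries of the same run had 136182. The Ctrl and CM sums were 0 and 532 at T1, 21 and 30923 at T2, and 25 and 98 at T6. In the weekly run Ctrl libraries had 0 to 5 reads each, beside CM libraries with 27 to 37755. Whether these Ctrl reads came from the blood of the controls was not tested.

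Each CM mouse was then compared with itself, its last training library (T4 to T10) against T0. Tph1 was higher in 7 of 7 mice by log2 CPM. In mouse 3368 the rise, from 0 to 2 reads, lay within the limit of 3 reads that a count of 0 allows. Tph1 stood at 0 reads in 6 mice and at 1 read in mouse 3336 before induction. The last libraries held 150 (mouse 3357), 86561 (3338), 8076 (3341), 1261 (3334), 25613 (3336), 1477 (3370) and 2 reads (3368). The change was 11.76 ± 1.31 log2 (SE, adjusted p = 8.8e-05). In sum this was 123140 reads against 1, of which mouse 3338 alone gave 86561. Slc18a2 rose in 7 of 7 mice, from 2.23 to 3.09 before induction to 6.19 to 9.38, by 5.47 ± 0.35 (adjusted p = 6.4e-06). Ddc rose in 7 of 7 mice, from -1.27 to 0.17 before to 0.30 to 5.98 after, by 3.52 ± 0.79 (adjusted p = 0.0037). Hdc was higher in 6 of 7 mice, with last levels of 3.11 to 10.73 (median 9.41), but the change of 2.28 ± 0.87 missed the threshold (adjusted p = 0.0509). The mouse that went down was 3368, from 6.55 to 3.11. Without it the Hdc change was 3.24 (adjusted p = 0.0022), and without mouse 3334, which began at 9.32, it was 2.65 (adjusted p = 0.0476). By voom Hdc passed too (2.52, adjusted p = 0.016). So 3 of 4 members passed in a comparison in which 46% of all genes did (10.1% higher and 35.9% lower). The median change of all genes was -0.57.

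Ddc did not follow Tph1 in every late library. In mouse 3341 at T6 Tph1 stood at 7.80 and Hdc at 10.69, but Ddc at 1.08, against at most 0.33 in Ctrl at that month. In mouse 3334 at T6.5 Tph1 stood at 5.23 and Hdc at 9.41, with Ddc at 0.30. Mouse 3338 at T4 had both serotonin enzymes high, Tph1 at 11.31 and Ddc at 5.98. Mouse 3368 was followed to T10 and never had more than 12 Tph1 reads. Its Slc18a2 of 6.19 at T10 was the highest of that month, where Ctrl reached 5.70, and its platelet marker sum was 32971 CPM, against 8080 to 21019 CPM in Ctrl.

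**Figure D4:**
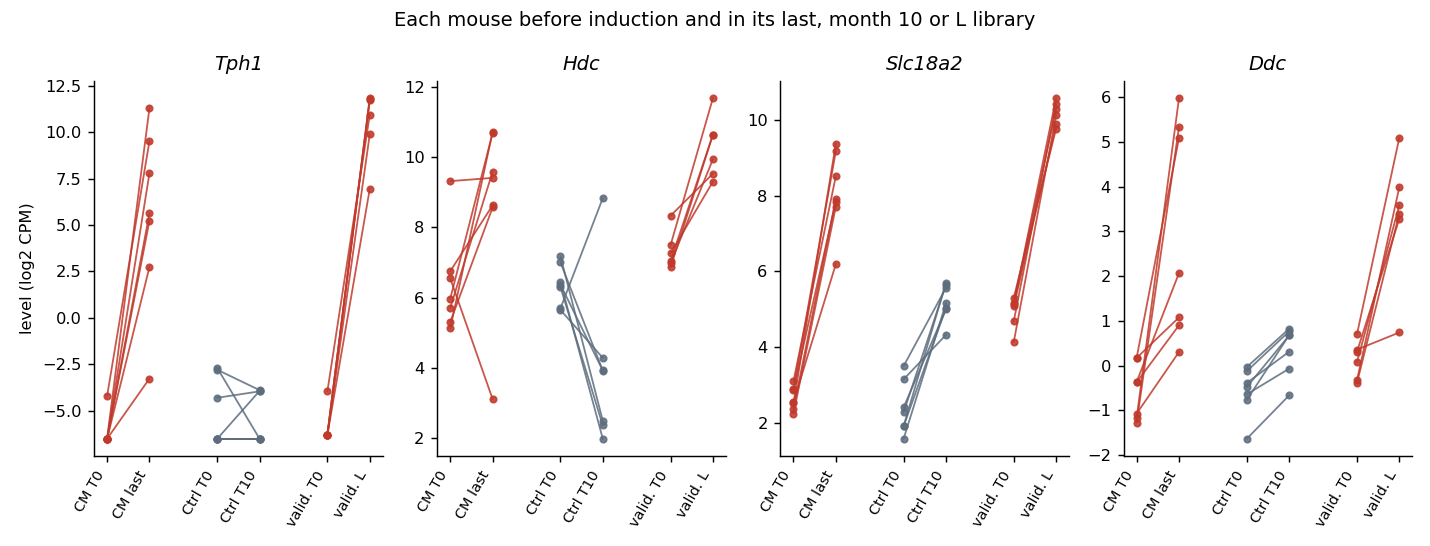
Level of each gene (log2 CPM) in every mouse before induction and late, joined by a line, for training CM mice (last library), training Ctrl mice (T10) and validation CM mice (L). Tph1 lines rise in every CM mouse, though in mouse 3368 only from 0 to 2 reads. In Ctrl at T10 they stay at no more than 1 read, while Hdc lines fall in 6 of 7 Ctrl mice.

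The 7 training controls changed as well between T0 and T10, without the fusion. Slc18a2 rose in 7 of 7 mice, from 1.57 to 3.49 (median 2.27) to 4.32 to 5.70 (median 5.16), by 2.82 ± 0.34 (adjusted p = 0.00055). Ddc rose in 7 of 7 by 0.94 ± 0.32 (adjusted p = 0.0205), from a mean of -0.58 to one of 0.36. Hdc fell in 6 of 7 mice, from a mean of 6.38 to one of 3.97, by 2.41 ± 0.85 on the log2 scale (adjusted p = 0.0241). The exception was mouse 3346, from 5.69 to 8.84. Tph1 had at most 3 reads in any of these libraries. This was a comparison in which 83.1% of all genes passed and the median gene changed by -1.81, and 3 of 4 members passed. Slc18a2, Ddc and Tph1 lay above that median and Hdc below it. With median-ratio scaling, which removes most of the shift, Hdc changed by -0.71 and lost its call (adjusted p = 0.44), while Slc18a2 (4.52) and Ddc (2.64) kept theirs, and Tph1 turned to 1.42 without a call (adjusted p = 0.16). Between T0 and T1 of the same mice 0 of 4 members and 0% of genes passed, none of the 4 at an unadjusted p of 0.05, and voom called none of the 4 and 3 genes in all.

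The late controls also moved in their blood cell markers. Platelet and megakaryocyte markers were higher at T10 in 14 of 14 genes, the summed level going from a median of 2359 CPM at T0 to 17577 CPM. Red cell markers were higher in 5 of 5, from a median sum of 1861 to 30925 CPM. Mature neutrophil markers were lower in 8 of 10 and higher in 1, from 3443 to 657 CPM. Over all genes 10.5% were higher and 72.7% lower at T10, so the neutrophil count is near the share of all genes. In the last CM libraries platelet markers were higher in 3 of 14 genes and neutrophil markers lower in 6 of 10. There 10.1% of all genes were higher and 35.9% lower. Across the 77 training Ctrl libraries, which share 7 mice, Slc18a2 had a Pearson correlation of 0.97 with the log platelet sum, and Hdc one of 0.94 with the log neutrophil sum. Across the 48 validation Ctrl libraries of 8 mice these were 0.81 and 0.48. The high Hdc level of mouse 3346 at T10 came with a neutrophil sum of 5944 CPM, the highest of that month, and that of mouse 3342 at T1 with 18948 CPM. The high T0 level of CM mouse 3334 came with 13945 CPM. Their part in these changes was not tested.

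The change in CM, last library minus T0, was next set against the change in Ctrl, T10 minus T0. All 4 members gained more in CM. Tph1 gained 11.22 ± 1.57 (SE, adjusted p = 0.0010), Hdc 4.15 ± 1.26 (adjusted p = 0.0179), Slc18a2 2.38 ± 0.50 (adjusted p = 0.0051) and Ddc 2.49 ± 0.97 (adjusted p = 0.0492). The 4 calls stood against a background of 38.6% (33.7% gaining more in CM and 4.92% less). The median gene gained 0.95, as most genes fell further in Ctrl. With median-ratio scaling Tph1 alone kept its call (10.01, adjusted p = 0.0060). Hdc then gained 2.93 (adjusted p = 0.076), Slc18a2 1.17 (0.15) and Ddc 1.28 (0.32). The late CM libraries were taken at T4 to T10 and the Ctrl ones at T10, so arm and month are not fully separate in this comparison.

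All 4 members were higher in the L libraries of the validation cohort than at T0. Tph1 held 4267 (mouse 2684), 82848 (2690), 50353 (2708), 71297 (2718), 108317 (2719) and 24468 reads (2731), against 1 read in sum at T0 of the same 6 mice. The change was 16.44 ± 0.67 log2 (adjusted p = 9.8e-07). Slc18a2 went from 4.13 to 5.31 at T0 to 9.79 to 10.59, by 5.28 ± 0.20 (adjusted p = 6.7e-07). Hdc went from 6.87 to 8.34 at T0 to 9.31 to 11.69, by 2.96 ± 0.37 (adjusted p = 0.00022). Ddc went from -0.39 to 0.70 at T0 to 0.74 to 5.09, by 3.23 ± 0.52 (adjusted p = 0.00085). All 4 members rose in 6 of 6 mice and passed, with and without mouse 2731, at a background of 64.5% (31.4% higher and 33% lower). No L library was made from controls, and L and T0 were different sequencing runs, so run and group cannot be told apart in this comparison.

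Ddc was lower at L than in the previous library in 5 of 6 mice. In mouse 2684 it was 5.33 at T4 and 0.74 at L, while Tph1 was 7.17 and 6.95 and Hdc rose from 9.57 to 10.65. In mice 2690, 2708 and 2719 Ddc was lower at L than at T3, with 3.98 against 5.63, 3.58 against 4.67 and 3.28 against 3.66. Mouse 2718 went from 3.63 at T5 to 3.40 and mouse 2731 from 5.03 at T2 to 5.09. Tph1 was higher at L than in the previous library in 4 of these 6 mice, and lower in mice 2684 and 2731. These steps cross sequencing runs and go from stranded to unstranded library preparation, so month, run and preparation cannot be told apart. They were not tested.

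Tph1, Hdc and Slc18a2 were higher in the last than in the first library of each of the 3 CM mice sampled by week, all within 1 sequencing run. In mouse 3200 Tph1 reads went from 587 at week 10 to 4410 at week 14 and 37755 at week 18, with Slc18a2 at 6.13, 8.82 and 9.86 and Hdc at 6.86, 8.61 and 8.79. Ddc in it was 4.51, 6.95 and 5.79. In mouse 3130 Tph1 reads went from 304 at week 20 to 30618 at week 24 and 31813 at week 25, and Hdc from 7.30 to 10.23 and 10.57. In mouse 3131 Tph1 reads went from 27 at week 20 to 288 at week 24 and 25312 at week 28, and Hdc from 4.70 to 9.75 and 10.88. In that mouse Ddc went down, from 2.08 to 0.37 and -0.41, the last below the 0.81 of Ctrl mouse 3127 at week 28. The Ctrl mice 3202 and 3127 had 0 to 5 Tph1 reads, Hdc at 5.33 to 6.61 and Slc18a2 at 3.90 to 5.10. With 3 CM and 2 Ctrl mice these values were not tested.

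The CM mice of the validation cohort that were sampled to T6 were 2685, 2686, 2700 and 2709. Their T6 Tph1 reads were 4, 88, 2 and 4. Hdc in them stood at 5.83, 6.03, 7.22 and 6.21, and the 6 Ctrl mice ran from 5.35 to 6.87. Mouse 2686 had Ddc above every Ctrl mouse at T6 (2.83 against at most 0.83). Mouse 2700, the one without the knock-in transcript, had 0 to 12 Tph1 reads over its 7 libraries.

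Other genes of amine handling were read from a list of 41, of which 21 were measured in training and 14 in validation. At training T1, 2 of 21 were higher and 1 lower in CM (median difference of the list 0.08, of all genes -0.18). Over all genes 3.68% were higher and 1.34% lower. At training T2, 3 were higher and 1 lower (0.16, against -0.09 for all genes), where 5.46% of all genes were higher and 6.25% lower. At validation T1, 4 of 14 were higher and none lower (0.23, against -0.09), where 7.95% of all genes were higher and 20.6% lower. Slc22a3, a low-affinity carrier of monoamines, was higher at each of them, by 2.88 ± 0.32, 2.74 ± 0.45 and 2.63 ± 0.56 (SE, adjusted p = 0.0004, 0.0021 and 0.0065). Maob, which breaks down monoamines, was higher at each as well, by 3.495 ± 0.58, 2.84 ± 0.42 and 4.31 ± 0.57 (adjusted p = 0.0027, 0.0011 and 0.0032). The dehydrogenase Aldh2 was higher by 0.58 at training T2 and 0.59 at validation T1 (adjusted p = 0.0432 and 0.0121). The serotonin receptor gene Htr2a was higher by 2.38 at validation T1 (adjusted p = 0.0147). In validation Ctrl libraries of T0 and T1, Slc22a3, Maob and Htr2a reached at most 1.76, -1.73 and -0.56 log2 CPM. All lay below the 5 CPM limit of that cohort, while L libraries reached 8.16, 4.49 and 4.32. As far as these genes entered through CM libraries, their validation calls are no independent support. The receptor gene Htr1b was lower at training T1 and T2, with differences of -2.87 and -1.85 (adjusted p = 0.0481 and 0.0138). At T1 it ran from -6.52, which is 0 reads, to -1.13 log2 CPM in CM and from -0.80 to 0.31 in Ctrl. Its fitted difference therefore depends on the prior that stands for 0 reads.

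From T0 to the last training CM library 7 of 21 genes of this list rose and 5 fell (median 0.74). There 10.1% of all genes rose and 35.9% fell. From T0 to L 9 of 14 rose and 2 fell (median 0.98), where 31.4% of all genes rose and 33% fell. Slc22a3 rose by 7.94 ± 0.54 in training and 7.27 ± 0.57 at L, and Htr2a by 6.68 ± 0.89 and 6.36 ± 0.49 (each with an adjusted p under the threshold). In training CM at T0 Htr2a ran from -6.52, which is 0 reads, to -2.92 log2 CPM. Its fitted rise there depends on the prior. The granule proteoglycan gene Srgn rose by 1.36 and 2.11. Ndst2, an enzyme of mast cell heparin synthesis, rose by 2.54 and 4.37. Gch1, the first enzyme of the Tph1 cofactor tetrahydrobiopterin, rose by 0.99 and 1.15. At L so did Spr, by 0.82, and Qdpr, by 0.65, which are listed with the same cofactor. Hnmt, which methylates and inactivates histamine, changed by -2.89 and -2.67. Slc6a4, the serotonin uptake carrier of platelets, fell by 3.53 from T0 to L, where 11 of 14 platelet markers were lower too; in training CM it changed by 0.51 and did not pass. The histamine receptor gene Hrh4 rose by 3.80 at L. In the training CM mice Hrh1 changed by -2.73, Hrh2 by -1.96, Htr1b by -3.99 and the carrier gene Slc29a4 by -1.36. Htr1b had T0 levels of only -1.98 to -1.05 log2 CPM there, so its change rests on few reads. Slc18a1, the gene of the second vesicular transporter, rose by 1.46 and Maob by 3.49. At L Maob rose by 6.29. Against the change in Ctrl, 6 of 21 gained more in CM and none less (median 1.40, against 0.95 for all genes), while 33.7% of all genes gained more. They were Slc22a3 (4.37), Maob (5.50), Ndst2 (4.73), Hrh4 (3.62), Qdpr (2.63) and Spr (2.33). In the late Ctrl libraries 5 of 21 rose and 13 fell (median -1.69, against -1.81 for all genes). There 10.5% of all genes rose and 72.7% fell. Those that rose were Slc22a3 (3.14), Htr2a (3.58), Slc6a4 (2.31), Aldh2 (1.51) and Srgn (0.98), with Hnmt (-3.49), Hrh1 (-1.69), Hrh2 (-2.97) and Slc29a4 (-2.47) among those that fell.

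Within the CM arm the members were higher in libraries with more basophil and mast cell and progenitor markers. The summed mast cell and basophil level had a median of 38.2 CPM at T0 and 10776 CPM at L in validation CM mice, and 11 of 12 of its genes were higher at L. The progenitor list (Kit, Cd34, Erg and others) had medians of 28.001 and 1464 CPM, with 6 of 7 higher and 1 lower. Across the 55 training CM libraries of 7 mice, the correlation with the log mast cell and basophil sum was 0.92 for Tph1, 0.91 for Slc18a2, 0.82 for Ddc and 0.69 for Hdc. Across the 68 validation CM libraries of 13 mice it was 0.95, 0.94, 0.75 and 0.79. With the log progenitor sum it was 0.83, 0.83, 0.65 and 0.80 in training, and 0.91, 0.97, 0.60 and 0.87 in validation. In training Ctrl libraries the mast cell correlations were -0.04 for Tph1, 0.61 for Slc18a2, 0.47 for Ddc and -0.13 for Hdc. All of these describe libraries that share mice, months and depth, and have no test. The neutrophil sum beside high Hdc differed between CM libraries. It was 390 CPM in mouse 3338 at T4 (Hdc 10.73) and 226 CPM in mouse 3341 at T6 (Hdc 10.69), but 7474 CPM in mouse 2690 at L (Hdc 9.53) and 2854 CPM in mouse 2731 at L (Hdc 9.94). The platelet sum beside high Slc18a2 differed as well. It was 2545 CPM in mouse 3338 at T4 (Slc18a2 9.38) and 751 CPM in mouse 3341 at T6 (Slc18a2 8.52), but 12739 CPM in mouse 3370 at T9 (Slc18a2 7.85) and 8039 CPM in mouse 3200 at week 18 (Slc18a2 9.86). In mouse 3334 at T6 the mast cell and basophil sum had reached 530 CPM with 2 Tph1 reads.

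**Figure D5:**
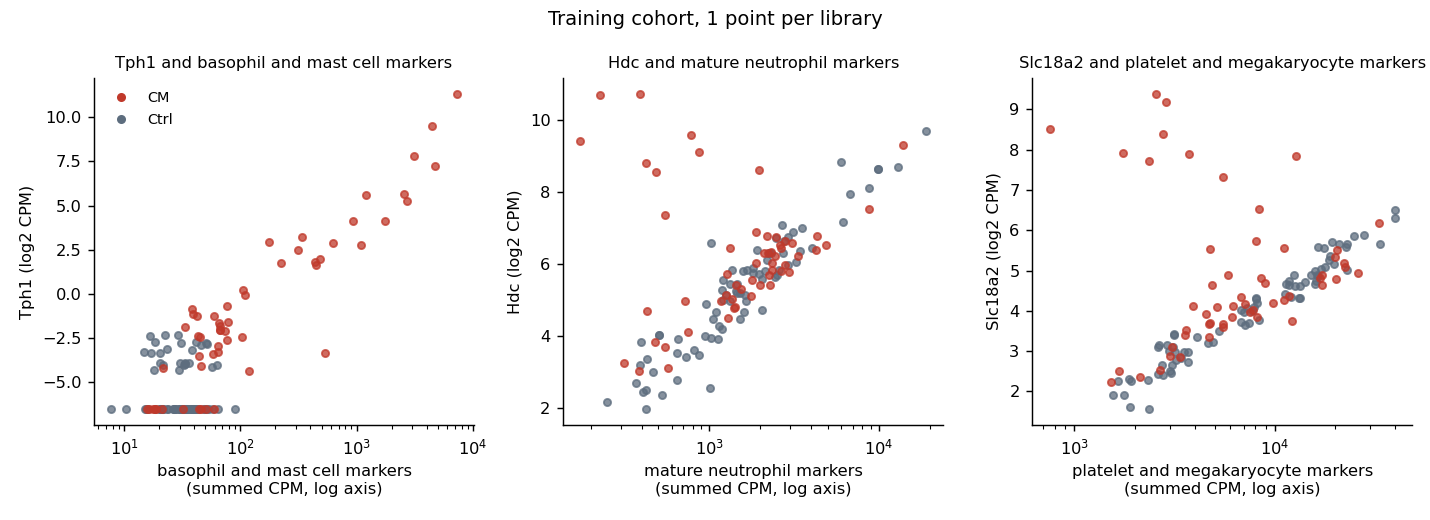
Level of Tph1, Hdc and Slc18a2 (log2 CPM, vertical axes) against the summed level of basophil and mast cell, mature neutrophil, and platelet and megakaryocyte markers (CPM, log axes), 1 point per training library. Ctrl points (grey) follow a line for Hdc and for Slc18a2, and several CM points (red) lie far above both, such as Hdc at 10.69 with a neutrophil sum of 226 CPM.

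Among each other, Tph1 and Ddc correlated at 0.84 over the training CM libraries and 0.75 over the validation ones, and Tph1 and Slc18a2 at 0.82 and 0.89. Hdc and Ddc were the least alike pair, at 0.46 and 0.33. In Ctrl libraries Hdc and Slc18a2 had correlations of -0.53 in training and 0.35 in validation.

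Of 11145 genes compared over all training libraries, Tph1 was most like Il1rl1, the IL-33 receptor of mast cells (Pearson r 0.89 in training and 0.95 over all validation libraries), then Sec14l2, Col5a1, Mns1 and F2r (0.85 to 0.87 in training, 0.87 to 0.93 in validation). Slc18a2 was most like Gmpr (0.96 and 0.92), Gata1 (0.95 and 0.93), Tom1l1 (0.95 and 0.98), Tal1 (0.95 and 0.94) and Clca1 (0.95 and 0.93). Hdc was most like Ankrd33b (0.96 and 0.85), followed by Cpne2, Lmnb1, Rab44 and Furin (0.91 to 0.92 in training, 0.79 to 0.87 in validation). Ddc was most like Homer2 (0.88 and 0.86), then Podxl, Ndrg2, Ntn4 and Gypc (0.82 to 0.83 in training, 0.74 to 0.80 in validation). Libraries of 1 mouse enter each value more than once, and arms and months are pooled, so these are descriptions of likeness only.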

How the data were processed

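Blood RNA of CM and Ctrl mice was sequenced in bulk. Per the submitters' processing notes, STAR, Subread and featureCounts were used, with edgeR named for the training cohort, on GRCm38; no version is given in the sources. The authors deposited log2 CPM values, in tables named as holding genes above 0.5 CPM (training) or 5 CPM (validation) in 2 libraries, and every gene's second highest value was above that limit. The deposited log2 values were turned back into reads with the prior of 0.25 reads, scaled to library size; 100% came out whole within 0.01. Ensembl identifiers matched symbols for 16266 of 18508 and 12612 of 13607 genes (RefSeq genes of GRCm38.p6 and a gene name table).

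Each test was limma (3.58.1, R 4.3.3) with an intensity trend on the deposited values, fitted on the whole table, two-sided, with Benjamini-Hochberg adjustment over all genes and a threshold of 0.05. Arms were compared within a month, 1 library per mouse, with sex as covariate. T0 and late libraries of the same animal were compared with the mouse as block, the pairing being the mouse number in the labels. The change in CM against the change in Ctrl was fitted on differences per mouse. Libraries titled T6.5 (mice 3334 and 3336) were left out of T6, and counted as the last library for mouse 3334. Alternatives were median-ratio scaling, log2(CPM + 1), genes with a mean log2 CPM above 1, voom on whole reads, no sex covariate, 1 fit over all months with the mouse as block (consensus correlation 0.0336 in training and 0.175 in validation), no block in paired fits, and leaving out mice (100 refits). The fit between arms was tested on simulated libraries modelled on training T1, with known differences. The other kinds of fit, and differences in genes with almost no reads, were not tested in this way. Tables were built with Python 3.11.15.

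Named genes were the 4 members, the 5 genes most alike to each (mean log2 CPM above 0, no predicted genes) and called genes of the amine list where at least 1 member was called. Members, lists and tests were chosen with earlier results of these data known. The limit of 3 reads that a count of 0 allows covers counting error only, as the reads have no molecular identifiers. Replicates are separate mice. Values of 1 listed gene are not reported here.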

Additional observations from a re-analysis of the deposited data

Results flagged for a closer look

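Of the groups of 4 to 10 libraries tested, 13 (11.02%) held a library that stood far from the others (the gap to its neighbour took an unusually large share of the group's range). Groups in which no library had more than 3 reads of the gene were left out. The cutoffs flag about 1 in 20 (5%) of independent groups with normally distributed values. These groups share mice, and some are tied at 0 reads, so the 2 shares cannot be compared. The 13 flagged groups follow. In the training cohort these were Ddc in CM at T4 (mouse 3338, 5.98 log2 CPM, the next 2.07), Hdc in CM at T0 (mouse 3334, 9.32, the next 6.75), Hdc in Ctrl at T3 (mouse 3342, 6.06, the next 5.27), Hdc in Ctrl at T10 (mouse 3346, 8.84, the next 4.29) and Tph1 in Ctrl at T2 (mouse 3335, -2.32, which is 4 reads, with the others at -6.52). In validation CM mice they were Tph1 at T1 (mouse 2685, -6.30, the next -1.82), Tph1 at T6 (mouse 2686, 2.18, the next -1.84), Hdc at T2 (mouse 2731, 10.71, the next 7.58), and Hdc and Slc18a2 at T4 (mouse 2684, 9.57 and 9.30, the next 6.86 and 5.61). Slc18a2 also stood apart at T5 (mouse 2718, 7.53, the next 5.40) and, on the low side, at T0 (mouse 2690, 4.13, the next 4.68). In validation Ctrl it was Tph1 at T2 (mouse 2705, 0.42, which is 21 reads, with the others at -6.30).

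The late change also differed between the arms by the test of the difference itself, limma on the change per mouse in training. CM gained more than Ctrl by 11.22 for Tph1, 4.15 for Hdc, 2.38 for Slc18a2 and 2.49 for Ddc (log2), in 7 CM and 7 Ctrl mice. The median gene gained 0.95 in that comparison.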

How the results depend on the processing

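Over all alternatives 779 of 821 single gene values kept their direction and side of the threshold, and 200 of 212 counts of called members stayed within 1.5 times the main count. Of those 200, 18 changed by 1 member (3 to 2, or 3 to 4 for late CM), among them Ctrl T10 (2) and late CM (4) with median-ratio scaling and T1 of both cohorts (2) with the replicate block. The count moved further as follows. At training T2, where 3 were called, 1 was left on genes with a mean log2 CPM above 1, which leaves Tph1 and Ddc untested, 1 with the mouse as replicate block, and 1 with the block and the library group. With the replicate block the count went from 0 to 1 at training T3, from 0 to 1 at training T6 (also 1 with the library group), from 0 to 2 at validation T2 and from 0 to 3 at validation T3. At validation T2 it was 1 without mouse 2700 and 1 without mouse 2731, the latter chosen after seeing the data. At validation T1 voom called 1 in place of 3. For the CM change against the Ctrl change median-ratio scaling left 1 in place of 4. Except for these changes and the calls of single genes given beside their results, the block fit over all months changed no call. That fit also shares 1 residual variance per gene over all months, so its changes cannot be credited to the block alone.

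Directions reversed for 7 values, none of them called. Hdc at training T0 was -0.12 with the replicate block, and Ddc at training T0 was 0.0227 without the sex covariate. Hdc at validation T1 was 0.00901 with median-ratio scaling, and between -0.28 and 0.11 when 1 mouse was left out. Hdc at validation T5 was between -0.0688 and 0.62 when 1 mouse was left out. Tph1 in late Ctrl was 1.42 with median-ratio scaling.

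When 1 mouse at a time was left out, Tph1 and Ddc kept their T1 calls in 14 of 14 fits in training and 16 of 16 in validation. Slc18a2 at training T1 kept its call in 12 of 14, the others having adjusted p of 0.0607 (without Ctrl mouse 3349) and 0.0666 (without Ctrl mouse 3350) by limma. Median-ratio scaling shifts the median of all genes, which was -0.18 at training T1, -0.11 at T4, 0.13 at T6, -0.57 for late CM, -1.81 for late Ctrl and 0.95 for their difference. Depth limits Tph1 most: a few reads decide each Ctrl value and most CM values of months 2 to 6, and the fitted log2 values rest on the prior there. The causes of the other changes were not tested.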
